A study of Chlorocebus sabaeus with 12 samples.

Results

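The protein kinase C genes PRKCA, PRKCD, PRKCE, PRKCH, PRKCI, PRKCQ and PRKCZ were examined in COS-1 cells, a kidney line of the African green monkey, that expressed a human FXR mutated at one serine. All 12 probes carrying one of these 7 names were read, out of 41000 probes with 30982 names, and each was followed on every array whatever its signal. The genes encode the isoforms alpha, delta, epsilon, eta, iota, theta and zeta, and the beta and gamma isoforms were not used here. PRKCD and PRKCQ had 1 probe each and the other 5 genes had 2. For 6 of the 7 genes a probe was well above background on all 12 arrays, and for PRKCQ on none.

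Protein kinase C phosphorylates serines and threonines and is sorted into classes by what switches it on. The conventional isoform alpha needs calcium and diacylglycerol, the isoforms delta, epsilon, eta and theta need diacylglycerol alone, and the atypical isoforms iota and zeta respond to neither and are held in place by partner proteins such as PAR6 and p62. Phorbol esters stand in for diacylglycerol. FXR (NR1H4) is the nuclear receptor for bile acids, and protein kinase C is a reported kinase of serines in the region of FXR that holds S154.

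The study set 4 groups of 3 arrays side by side. Cells expressing FXR S154D, whose aspartate carries a charge like that of a phosphate, received chenodeoxycholic acid (CDCA, a bile acid that activates FXR, given in the labels as 50 mM) or 0.1% DMSO. Cells expressing FXR S154A, whose alanine cannot be phosphorylated, received the same 2 treatments. The mutants were expressed transiently for 24 h and the treatment lasted 24 h. The groups are called S154D_CDCA, S154D_DMSO, S154A_CDCA and S154A_DMSO, and there is no wild-type or untransfected group among them. The labels do not say that replicates came from separate cultures, so the spread between arrays, and every p-value built on it, may be technical.

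The RNA was from monkey and the probes human, so sequence differences between both species can lower a signal. All 7 gene symbols are also in the RefSeq annotation of the green monkey. A level is the log2 of the processed signal relative to the 75th percentile of the array, which lay between 1235 and 2105 units of intensity, and 61.6% to 79.8% of the spots of an array were well above background. A probe counts as well above background where the scanner software set that mark on no fewer of its usable spots than it left unmarked. In a bulk RNA sample, fewer cells with a transcript and less of it per cell cannot be told apart. The NR1H4 probe read 7.56 ± 0.13 in S154D_CDCA, 7.77 ± 0.27 in S154D_DMSO, 7.59 ± 0.13 in S154A_CDCA and 7.73 ± 0.16 in S154A_DMSO (log2 level, mean ± SD, n = 3). Of 9 markers of a fibroblast-like kidney line, 8 were well above background on all 12 arrays, among them VIM and PAX8. So were 7 of 7 epithelial markers, 3 of 6 of hepatocytes, 4 of 9 of leukocytes and 2 of 5 of neurons, and 57.0% of all 41000 probes. Since leukocyte markers carried the mark in a kidney line, the mark alone does not establish that a gene is expressed. The leukocyte marker PTPRC was on none.

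Of the 60-base probes, 5 are printed in the sense orientation, since the results turn on them. The probes of PRKCA and PRKCD are the ones that were lower with CDCA in S154D cells, and those of PRKCE, PRKCH and PRKCQ are among the 4 that were not well above background on most arrays. No base is marked by capitals.
PRKCA A_23_P55099: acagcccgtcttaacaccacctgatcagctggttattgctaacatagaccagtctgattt
PRKCD A_23_P144054: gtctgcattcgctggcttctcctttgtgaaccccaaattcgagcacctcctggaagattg
PRKCE A_23_P348194: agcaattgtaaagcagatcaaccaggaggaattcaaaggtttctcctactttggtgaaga
PRKCH A_24_P937915: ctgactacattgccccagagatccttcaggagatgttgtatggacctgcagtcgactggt
PRKCQ A_23_P1374: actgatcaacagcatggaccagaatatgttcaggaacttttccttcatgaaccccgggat
The array design places 4 of these on the human build hg17. They are PRKCA at chr17:62230497-62230556, PRKCD at chr3:53201262-53201321 and PRKCE at chr2:46323599-46323658 on the plus strand, and PRKCQ at chr10:6510194-6510253 on the minus strand. The printed PRKCH probe has no position in the files. The second probe of PRKCA starts 6735 bases further along chromosome 17, at 62237232, and the second of PRKCE starts 2788 bases further along chromosome 2, at 46326387. The second PRKCH probe lies at 61087036 on chromosome 14. The PRKCI probes start 23 bases apart on chromosome 3, at 171503604 and 171503627, and share a run of 37 bases, so they read nearly the same stretch. The PRKCZ probes lie 84442 bases apart on chromosome 1, at 2148865 and 2064423. Whether a position is coding or untranslated was not looked up here.

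Most probes were either detected on every array or on hardly any. Of the 12 probes, 8 were well above background on all 12 arrays, where 57.0% of all 41000 probes were, and 2 were on none, where 15.1% of all probes were. The 8 are both probes of PRKCA, both of PRKCI, and 1 probe each of PRKCD, PRKCE, PRKCH and PRKCZ. On a single array, 8 to 10 of the 12 probes were detected. No spot of these probes was saturated, and 5 of 360 spot readings were marked as outliers and dropped.

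**Figure D1:**
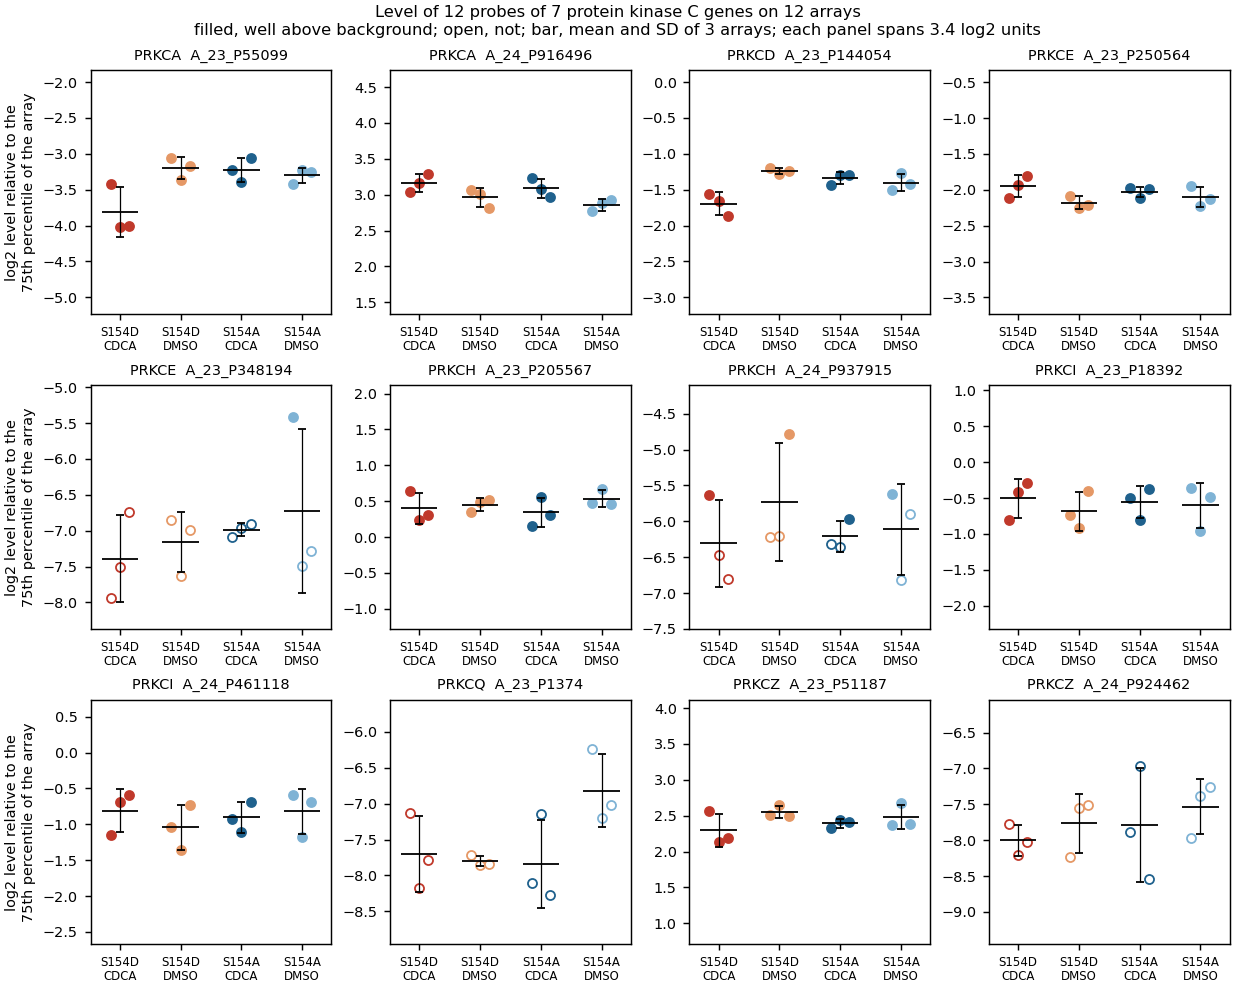
Level of each of the 12 probes (log2 relative to the 75th percentile of the array) in the 4 groups, 1 panel per probe and 1 point per array, with mean and SD of 3 arrays; filled points were well above background and each panel spans the same number of log2 units. In S154D_CDCA the 3 points of PRKCA A_23_P55099 and of PRKCD lie below the 3 of S154D_DMSO, and the 4 panels with open points are those of probes not well above background on most arrays.

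PRKCQ, the isoform theta known for its role in T cells, was not well above background on any array. Its signal was 14.0, 4.28 and 8.82 in S154D_CDCA and 7.55, 6.87 and 5.67 in S154D_DMSO. In S154A_CDCA it was 4.74, 13.1 and 5.80, and in S154A_DMSO it was 27.9, 10.7 and 12.6. All of these lie below the dimmest probe that was well above background on the same array, which had a signal of 16.8 to 45.7 depending on the array. The reading rests on 1 human probe and monkey RNA.

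The other dim probes belong to genes whose second probe was detected on all 12 arrays. PRKCZ A_24_P924462 was not well above background on any array (signal 4.19 to 14.9). The array design names it PRKCZ but describes it as the transcript KIAA0505, so it may not read the PRKCZ mRNA. PRKCE A_23_P348194 was marked on 1 array, S154A_DMSO 1, at a signal of 49.3, whereas the 99th percentile of the negative control spots of that array was 50.5. Its signal was 6.81 to 18.3 on the other 11 arrays. PRKCH A_24_P937915 was marked on 4 arrays, 1 in each group (S154D_CDCA 1, S154D_DMSO 3, S154A_CDCA 3 and S154A_DMSO 1), at 28.8 to 46.9, and it exceeded the 99th percentile of the negative controls on 2 arrays. Under the scanner software's looser mark for a signal above background, PRKCQ had it on 8 arrays, PRKCE A_23_P348194 on 8, PRKCH A_24_P937915 on 12 and PRKCZ A_24_P924462 on none. No group had all 3 arrays well above background at these 4 probes, so their differences between groups are not given. Fitted without that filter, none of them was called in any of the 5 comparisons by limma. In that fit 0 of all 41000 probes were called for CDCA against DMSO in S154D cells (7812 at an unadjusted p under 0.05). For S154D against S154A under DMSO the count over all probes was 0 too. In these comparisons the absence of calls therefore says nothing about the 4 probes.

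The differences between groups were therefore fitted for 8 probes of 6 genes. PRKCA, the conventional isoform, has the pair of detected probes that lie far apart. The probe A_23_P55099, present as 10 spots on each array, read -3.42, -4.02 and -4.01 in S154D_CDCA and -3.06, -3.36 and -3.17 in S154D_DMSO (log2 level). It read -3.23, -3.39 and -3.05 in S154A_CDCA and -3.42, -3.23 and -3.25 in S154A_DMSO. Every S154D_CDCA array lay below every S154D_DMSO and S154A_CDCA array, and the means of the other 3 groups, -3.20 in S154D_DMSO, -3.22 in S154A_CDCA and -3.30 in S154A_DMSO, differed by less than their SDs of 0.11 to 0.17.

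The other PRKCA probe, A_24_P916496, did not repeat that order. It read 3.04, 3.17 and 3.30 in S154D_CDCA and 3.06, 3.01 and 2.81 in S154D_DMSO, which overlap. In S154A_CDCA it read 3.23, 3.08 and 2.96, against 2.77, 2.88 and 2.93 in S154A_DMSO, where every CDCA array lay above every DMSO array. Its group means were 3.17 in S154D_CDCA, 2.96 in S154D_DMSO, 3.09 in S154A_CDCA and 2.86 in S154A_DMSO. They spanned 0.31, with SDs of 0.08 to 0.13. CDCA stood above DMSO by 0.21 in S154D cells and by 0.23 in S154A cells. Neither difference was called (adjusted p = 0.253 and 0.918 by limma).

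PRKCD, a diacylglycerol-dependent isoform that is cleaved and activated in apoptosis, was read by 1 probe present as 10 spots. It read -1.56, -1.66 and -1.87 in S154D_CDCA and -1.20, -1.28 and -1.24 in S154D_DMSO. In S154A_CDCA it read -1.43, -1.29 and -1.29, and in S154A_DMSO -1.51, -1.27 and -1.43. S154D_CDCA was the lowest group, with no overlap with S154D_DMSO or S154A_CDCA, and the S154A groups overlapped each other.

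**Figure D2:**
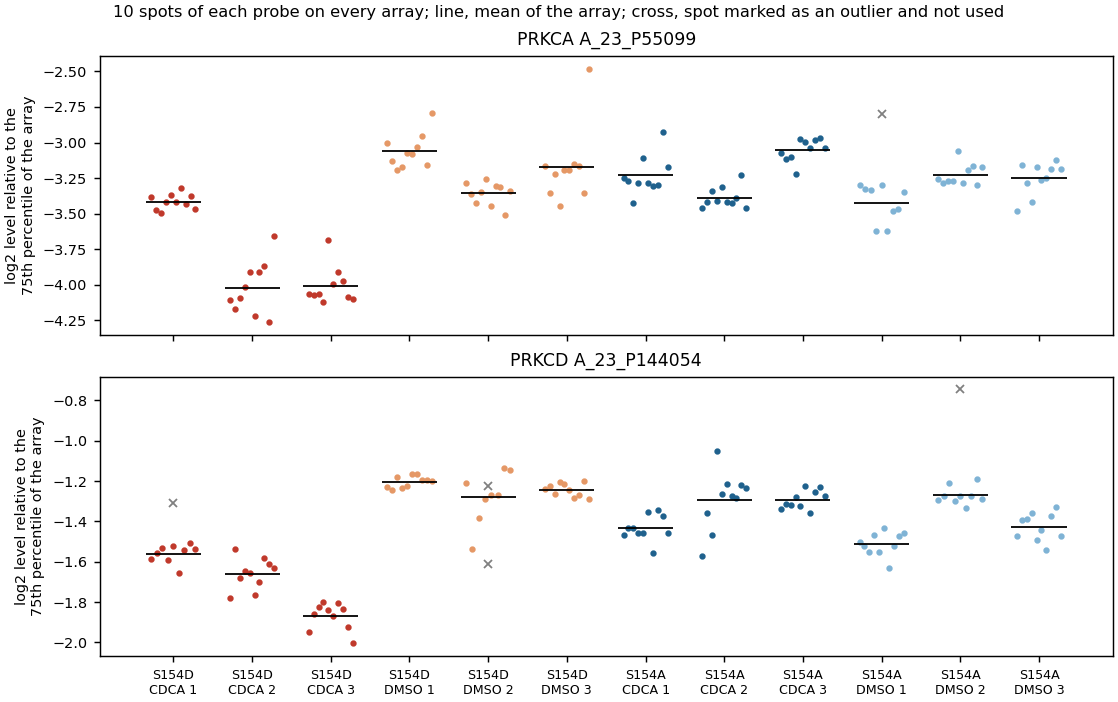
Log2 level of every spot of the PRKCA probe A_23_P55099 and of the PRKCD probe, 10 spots on each of the 12 arrays, with the array mean as a line and a cross for each of the 5 spots marked as outliers and not used. The spots of S154D_CDCA 2 and 3 of PRKCA and those of S154D_CDCA 3 of PRKCD lie lowest.

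The repeated spots show how far 1 array can be read. Within an array, the SD between spots of the PRKCA probe was 0.06 to 0.26 with a median of 0.12, and that of the PRKCD probe was 0.03 to 0.14 with a median of 0.06. Between the 3 array means of a group, the SD of PRKCA was 0.35 in S154D_CDCA and 0.11 to 0.17 in the other groups, and that of PRKCD was 0.16 in S154D_CDCA, 0.04 in S154D_DMSO, 0.08 in S154A_CDCA and 0.12 in S154A_DMSO.

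PRKCE and PRKCH, the diacylglycerol-dependent isoforms epsilon and eta, overlapped between groups on their detected probes. PRKCE A_23_P250564 read -2.11, -1.93 and -1.81 in S154D_CDCA and -2.08, -2.26 and -2.20 in S154D_DMSO. It read -1.97, -2.11 and -1.99 in S154A_CDCA and -1.95, -2.23 and -2.13 in S154A_DMSO. Both pairs of groups overlap. PRKCH A_23_P205567 read 0.65, 0.24 and 0.31 in S154D_CDCA and 0.35, 0.49 and 0.52 in S154D_DMSO. In S154A cells it read 0.16, 0.57 and 0.30 with CDCA and 0.47, 0.67 and 0.46 with DMSO, and again all groups overlap.

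PRKCZ, the atypical isoform zeta, overlapped between groups. Its probe A_23_P51187 read 2.56, 2.14 and 2.19 in S154D_CDCA and 2.52, 2.65 and 2.49 in S154D_DMSO. In S154A cells it read 2.32, 2.44 and 2.41 with CDCA and 2.37, 2.68 and 2.39 with DMSO. The array S154D_CDCA 1 stands among the S154D_DMSO arrays, and the SD was 0.23 in S154D_CDCA, 0.08 in S154D_DMSO, 0.06 in S154A_CDCA and 0.17 in S154A_DMSO.

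PRKCI, the atypical isoform that pairs with PAR6 in cell polarity, had the largest SD within groups of the 8 probes, 0.27 and 0.29 on its 2 probes when pooled over the 4 groups. A_23_P18392 read -0.81, -0.41 and -0.29 in S154D_CDCA and -0.74, -0.92 and -0.40 in S154D_DMSO. It read -0.50, -0.81 and -0.38 in S154A_CDCA and -0.36, -0.96 and -0.48 in S154A_DMSO, so each group holds a high and a low array. On slide 3, which carried 1 array of each group, the levels spanned -0.50 to -0.40, and the 2 arrays of slide 4 read -0.92 and -0.81. The 3 arrays of slide 1 spanned -0.74 to -0.36, and those of slide 2 spanned -0.96 to -0.29, which is the whole range of the 12 arrays. A_24_P461118 followed it: the level of A_23_P18392 minus that of A_24_P461118 was 0.30 ± 0.03 in S154D_CDCA, 0.35 ± 0.07 in S154D_DMSO, 0.34 ± 0.07 in S154A_CDCA and 0.22 ± 0.01 in S154A_DMSO (mean ± SD, n = 3). The variation of PRKCI was thus shared by both overlapping probes.

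CDCA against DMSO in S154D cells asked which isoforms changed with bile acid under the charged FXR mutant. PRKCA A_23_P55099 and PRKCD were lower with CDCA and 0 of the 8 probes were higher. Of all 26898 probes tested, 11.6% were called and 4.52% were called lower. At this PRKCA probe the log2 difference was -0.62 ± 0.17 (standard error, 95% interval -1.0 to -0.24), which is 1.54-fold lower, with an adjusted p of 0.045 by limma. The brighter PRKCA probe, A_24_P916496, differed by 0.21 (95% interval -0.05 to 0.46, adjusted p = 0.253 by limma). A fall of PRKCA as a gene is therefore not shown. In PRKCD it was -0.45 ± 0.11 (95% interval -0.70 to -0.21), 1.37-fold lower, with an adjusted p of 0.0334 by limma. These are also the 2 of 8 probes whose groups do not overlap, where 34.6% of all probes do not, and the 2 of 8 with an unadjusted p under 0.05, where 30.9% of all probes have one. The other 6 probes had differences of -0.25 (PRKCZ, 95% interval -0.55 to 0.04) to 0.23 (PRKCE, 95% interval -0.02 to 0.49), with adjusted p-values of 0.198 to 0.828 by limma. The median over the 8 probes was 0.06, against -0.02 over all probes tested.

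Both differences were negative in every setting tried, and neither call held in all of them. With the slide as a block, PRKCA A_23_P55099 differed by -0.82 (adjusted p = 0.132 by limma) and PRKCD by -0.50 (adjusted p = 0.146). That fit called 0 of all 26898 probes. Within slide 3, the 1 slide with both groups, they differed by -0.85 and -0.42, each from 1 array against 1. PRKCA lost its call without any 1 of 10 arrays (S154D_CDCA 2 or 3, any S154D_DMSO array, S154A_CDCA 1 or 3, or any S154A_DMSO array, difference -0.70 to -0.52, adjusted p = 0.0501 to 0.158 by limma). PRKCD lost it, at a difference of -0.47 to -0.37, without S154D_CDCA 2 (0.0608) or 3 (0.123), S154D_DMSO 1 (0.112) or 3 (0.106), or S154A_DMSO 3 (0.0504). Without S154D_CDCA 3, S154D_DMSO 1 or S154D_DMSO 3, limma called 0 of all probes.

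The summed signals of epithelial and of neuronal markers were lower with CDCA in this comparison, though most markers of both lists had higher means with CDCA. The signals of the 7 epithelial markers, none of them undetected, summed to 9809 to 11329 in S154D_CDCA and 12228 to 12819 in S154D_DMSO, in percent of the 75th percentile of the array. The brightest were KRT18 (mean log2 level 6.05 in S154D_CDCA, 6.22 in S154D_DMSO) and KRT8 (5.06 and 5.46). They made up most of the sum, since no other marker of the list had a mean above 2.69 in these groups. CLDN4 was lower with CDCA too, while CDH1, KRT19, OCLN and TACSTD1 had higher means with CDCA. The signals of the 5 neuronal markers summed to 183 to 209 in S154D_CDCA and 215 to 269 in S154D_DMSO. The brightest was ENO2 (mean log2 level 0.87 in S154D_CDCA, 1.19 in S154D_DMSO). It made up most of the sum, since the others had means of -3.79 or lower in these groups. NEFL was lower with CDCA too, while MAP2, SNAP25 and SYP had higher means with CDCA. NEFL was well above background on 7 of the 12 arrays and SYP on 2. Of all single probes tested, 34.6% did not overlap between these groups. The sums of the other 3 marker lists overlapped between the groups, and the part of the markers in the calls was not tested.

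The base composition of the probes moved with this comparison. Over the 26898 probes tested, the response to CDCA in S154D cells had a Spearman correlation of -0.56 with the GC content of the probe, against -0.10 in S154A cells, as a description of probes that share the same arrays. The PRKCD probe holds 51.7% GC, and probes of 50% to 55% GC had a median response of -0.27, with a 10th to 90th percentile of -0.69 to 0.12 that includes its own -0.45. The called PRKCA probe holds 45% GC, and probes of 45% to 50% GC had a median of -0.07 and a 10th percentile of -0.54, above its -0.62. After a correction for the trend with GC, the PRKCD difference was -0.23 (adjusted p = 0.216 by limma) and that of PRKCA was -0.57 (adjusted p = 0.159). Limma called 0 of all 26898 probes after that correction. With that correction the difference of the bright PRKCA probe, of 35% GC, was -0.10 and that of PRKCE A_23_P250564, also of 35% GC, was -0.07, so both changed sign, as did PRKCI A_24_P461118 with -0.01 and PRKCZ with 0.04. The part of base composition in the calls was not tested.

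**Figure D3:**
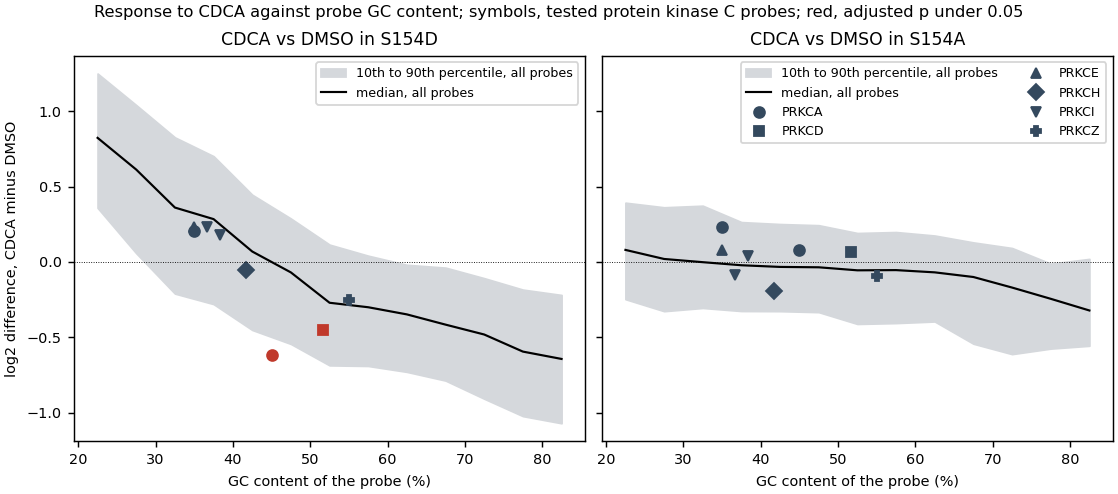
Log2 difference, CDCA minus DMSO, against the GC content of the probe (%) in S154D cells on the left and S154A cells on the right, with the median and the 10th to 90th percentile of all tested probes and a symbol for each of the 8 protein kinase C probes, red where called. In S154D cells the median falls with GC content and the red PRKCA symbol at 45% GC lies below the band.

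The 2 PRKCA probes can also be set against each other on the same array, which shows unequal change and not which probe moved. The level of A_24_P916496 minus that of A_23_P55099 was 6.46, 7.19 and 7.30 in S154D_CDCA and 6.12, 6.37 and 5.99 in S154D_DMSO. The means were 6.98 ± 0.46 and 6.16 ± 0.20 (SD, n = 3 each), 0.83 apart, with p = 0.1 by a two-sided exact permutation test, the smallest value that 3 arrays against 3 can give. In S154A cells the same difference was 6.31 ± 0.26 with CDCA and 6.16 ± 0.05 with DMSO (exact permutation p = 0.4). The pair of PRKCI probes, which overlap, reached p = 0.1 too by this exact permutation test. It did so for CDCA against DMSO in S154A cells (0.34 and 0.22) and for S154D against S154A under DMSO (0.35 and 0.22). For CDCA against DMSO in S154D cells PRKCI gave 0.4, and for S154D against S154A under CDCA 0.5. The smallest value is thus not particular to PRKCA. After the GC correction the responses to CDCA in S154D cells were -0.10 for A_24_P916496 and -0.57 for A_23_P55099, which lie closer together. Which of both places stands for the PRKCA transcript was not tested.

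**Figure D4:**
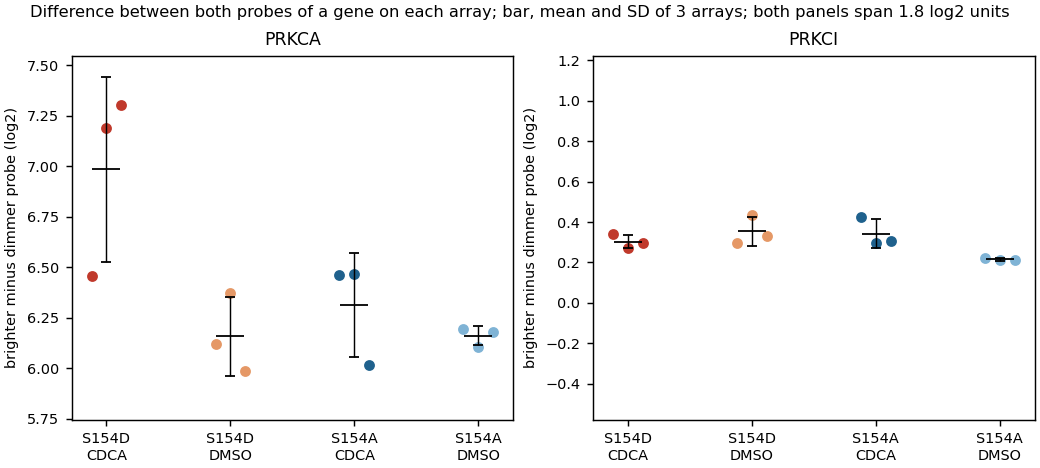
Difference between both probes of PRKCA (left) and of PRKCI (right) on each array, brighter minus dimmer in log2 units, by group, with mean and SD of 3 arrays; both panels span the same range. For PRKCA, S154D_CDCA 2 and 3 stand at 7.19 and 7.30, above the other arrays, while for PRKCI all 12 arrays lie between 0.21 and 0.43.

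CDCA against DMSO in S154A cells gave 0 calls among the 8 probes by limma, with 0 at an unadjusted p under 0.05, where 0.119% of all probes were called and 5.58% had an unadjusted p under 0.05. In 1 of 8 probes, the bright PRKCA probe, the groups do not overlap, as in 11.3% of all probes. Its log2 difference was 0.23 (95% interval -0.03 to 0.49, adjusted p = 0.918 by limma), and within slides 1 and 3 it was 0.19 and 0.30. The remaining differences ran from -0.19 in PRKCH to 0.08 in the dim PRKCA probe and in PRKCE, and PRKCD differed by 0.06 (95% interval -0.18 to 0.31). The median over the 8 probes was 0.05, against -0.04 over all probes tested.

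**Figure D5:**
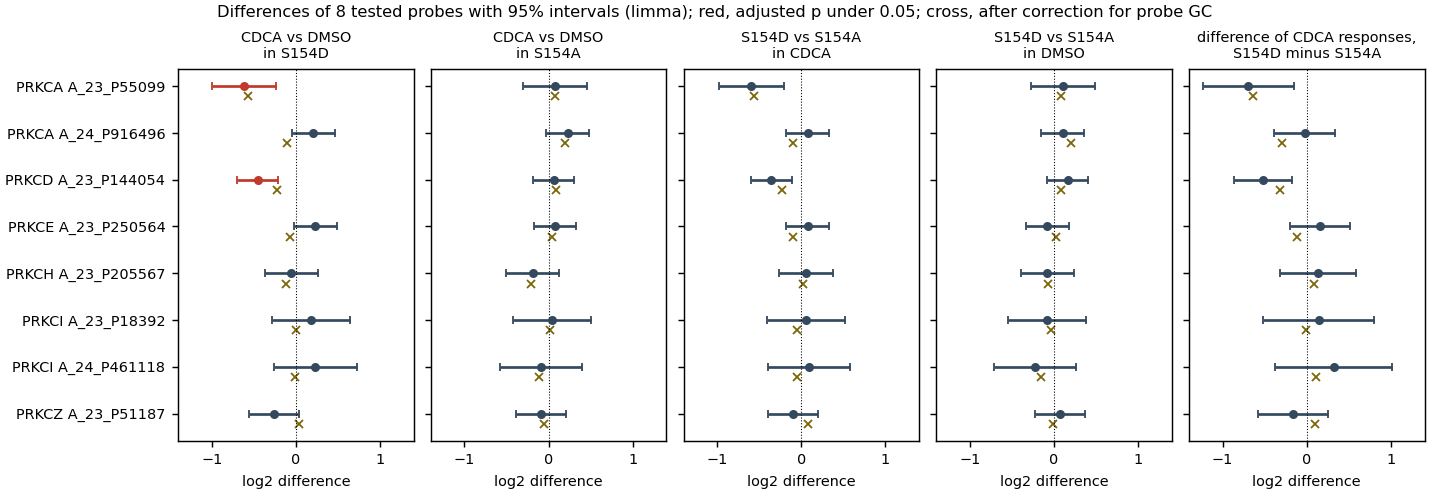
Log2 difference of each of the 8 tested probes with its 95% interval in the 5 comparisons, 1 panel each, red at an adjusted p under 0.05 by limma, and a cross for the value after correction for probe GC. The 2 red points are PRKCA A_23_P55099 and PRKCD for CDCA against DMSO in S154D cells.

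S154D against S154A under CDCA gave 0 calls among the 8 probes by limma, where 0.346% of all probes were called. For 2 of the 8 the unadjusted p was under 0.05, as for 23.5% of all probes, and for 2 the groups did not overlap, as for 27.9% of all probes. They are PRKCA A_23_P55099 and PRKCD, and the S154D_CDCA arrays here are those of the CDCA comparison above. This PRKCA probe differed by -0.59 ± 0.17 (adjusted p = 0.103 by limma) and PRKCD by -0.36 ± 0.11 (adjusted p = 0.112), and within slide 3 they differed by -0.79 and -0.23, each from 1 array against 1. The comparison also followed probe GC (Spearman -0.39), and the corrected differences were -0.57 for PRKCA (adjusted p = 0.197 by limma) and -0.23 for PRKCD (adjusted p = 0.253). Without S154D_CDCA 1, PRKCA differed by -0.79 and passed (adjusted p = 0.0363 by limma). The other 6 probes differed by -0.09 to 0.10.

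S154D against S154A under DMSO gave 0 calls among the 8 probes by limma, with 0 at an unadjusted p under 0.05, where 0% of all probes were called and 4.38% had an unadjusted p under 0.05. In 0 of the 8 did the groups separate, where 11.4% of all probes did. The differences ran from -0.22 (95% interval -0.71 to 0.27) in PRKCI A_24_P461118 to 0.16 (95% interval -0.08 to 0.40) in PRKCD. These intervals do not show that the mutants have equal levels.

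Whether CDCA acted differently with both mutants was tested directly, as the response in S154D cells minus that in S154A cells. It gave 0 calls among the 8 probes by limma, where 0.219% of all probes were called. PRKCA A_23_P55099 had a difference of -0.70 ± 0.24 (unadjusted p = 0.0163, adjusted p = 0.141 by limma) and PRKCD of -0.52 ± 0.16 (unadjusted p = 0.00734, adjusted p = 0.108 by limma), and 22.4% of all probes had an unadjusted p under 0.05. After the GC correction these were -0.65 (adjusted p = 0.281 by limma) and -0.31 (adjusted p = 0.298). The falls in S154D cells are thus not shown to differ from the responses in S154A cells. In the other 6 probes the difference was -0.16 to 0.32, the highest value being that of PRKCI A_24_P461118 (95% interval -0.37 to 1.01).

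Genes that act around protein kinase C were read from 7 lists, through the brightest tested probe of each gene. In S154D cells 10.2% of 20355 genes were called between CDCA and DMSO by limma, with a median difference of -0.01. Over all probes in that comparison, limma called 0 of 26898 after the GC correction (5074 at an unadjusted p under 0.05), and 0 without S154D_CDCA 3, S154D_DMSO 1 or S154D_DMSO 3. The lists had 0 calls by limma for CDCA in S154A cells (0.133% of all genes called, 0 to 3 members of a list at an unadjusted p under 0.05) and for S154D against S154A under CDCA (0.403% called, 2 to 7 members). They also had 0 calls for S154D against S154A under DMSO (0% called, 0 to 2 members) and for the difference between the responses (0.138% called, 1 to 6 members). The unadjusted p by limma was under 0.05 for 1207, 4811, 880 and 4549 of 20355 genes in these comparisons, in the order given.

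Of 12 genes of the phospholipase C family, whose active members release diacylglycerol, 1 was higher and 2 were lower with CDCA in S154D cells, with a list median of 0.08. PLCD3 fell by 1.0 ± 0.23 log2 units (-0.74 after the GC correction), PLCB3 fell by 0.67 ± 0.18 (-0.37 after it), and PLCL2, an inactive relative of the enzymes, rose by 0.47 ± 0.12 (0.16 after it). Of 6 diacylglycerol kinases, which remove diacylglycerol, 1 was higher and 1 lower, with a median of -0.20. DGKH rose by 0.50 ± 0.11 (adjusted p = 0.0303 by limma) and DGKZ fell by 0.55 ± 0.15 (adjusted p = 0.0472 by limma). The DGKZ probe holds 75% GC and its corrected value was -0.06, while that of DGKH was 0.32.

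Of 6 kinases related to protein kinase C, 0 were higher and 2 lower with CDCA in S154D cells, with a list median of -0.48. The median GC content of their probes is 55%, and all probes of 55% to 60% GC had a median response of -0.30. PRKD2, a protein kinase D activated by protein kinase C, fell by 0.56 ± 0.12. Its probe holds 55% GC, and the corrected value was -0.26. Of 13 genes of maturation and dephosphorylation, 0 were higher and 1 was lower, with a median of -0.15. It is GBL, a subunit of the mTOR complexes, which fell by 0.68 ± 0.17 (-0.35 after the correction).

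Among genes that phorbol esters are known to induce, 2 of 23 rose with CDCA in S154D cells and 0 fell, with a list median of 0.00. ATF3, a stress-induced transcription factor, rose by 0.52 ± 0.12 (0.34 after the GC correction) and PLAT, the tissue plasminogen activator, rose by 0.91 ± 0.25 (0.60 after it). The PLAT probe was dim, with a log2 level of -4.53 in S154D_CDCA and -5.43 in S154D_DMSO. Of 17 substrates, 0 rose and 3 fell, with a list median of 0.01. They are the polarity proteins LLGL1 (-0.89 ± 0.23) and LLGL2 (-0.66 ± 0.14), which atypical isoforms phosphorylate, and SDC4, a syndecan that binds PRKCA (-0.71 ± 0.17). Their corrected values were -0.63, -0.28 and -0.45. Of 17 scaffolds and anchors none passed in either direction, with a median of -0.14. For 2 of them the unadjusted p by limma was under 0.05, as for 6104 of all 20355 genes. The brightest probes of that list belong to YWHAQ, a phosphoserine-binding adaptor, and to GNB2L1, the receptor for activated protein kinase C. GNB2L1 read 5.46 in S154D_CDCA and 5.54 in S154D_DMSO.

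For each detected member, the gene names with the most similar profile over the 12 arrays were found by the mean absolute difference between levels centred on each probe's own mean. PRKCD was nearest to MAD1L1 (0.03 log2 units, where PRKCD itself deviated from its mean by 0.16) and TMCC2 (0.04). The bright PRKCA probe was nearest to CREB3L2 (0.05, against 0.13 of its own), PRKCE to SYNE1 and MAN1A2 (0.06 each, against 0.11), and PRKCH to DDX23 and ZMYND10 (0.05 each, against 0.13). PRKCI was nearest to KBTBD3 and TMED7 (0.06 each, against 0.22) and PRKCZ to ARHGEF19 and PSMB3 (0.04 each, against 0.13). All of these profiles share the same 12 arrays and their slides, and the nearest of 20355 genes is near by selection.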

How the data were processed

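The deposited scanner files hold, per spot, an intensity from which the authors' Agilent Feature Extraction software had removed background and the spatial trend. The software is version 9.5.3.1 per the file headers and 12 per the submitters' processing notes. The deposited series table holds the same intensity values (45015 per array, relative tolerance 1e-05). The 43376 non-control spots were used. Outlier spots were dropped, log2 of the intensity was taken relative to the 75th percentile of the array, and spots were averaged per probe. Probes were kept where some group had all 3 arrays well above background, 26898 of 41000 and 8 of the 12 protein kinase C probes. One mean per group was fitted to 12 arrays with limma 3.58.1 in R 4.3.3 (version 1.17.8 of data.table), with 146 probes lacking a value on some array. P-values are two-sided, adjusted by Benjamini-Hochberg over all kept probes (over 20355 genes for the lists) and called at 0.05. Intervals are at 95%. On simulated data for 26752 probes, built on CDCA against DMSO in S154A cells, 51 of 100 probes changed by 1 log2 unit and 85 of 100 changed by 2 were called, with 7 false calls. The simulated noise was independent between probes and held no slide effect or trend with GC. These counts therefore do not describe the calls in S154D cells.

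The members, the gene lists and the alternatives were chosen with earlier results of these data known. The rule for names was all member probes, the 2 most similar genes per member, and from each list up to 4 called genes or otherwise the 2 brightest. VIM, PAX8, PTPRC and the named epithelial and neuronal markers are named outside it, after their values were seen. A few genes covered by this rule are not reported here. Precision is limited by the number of arrays, 3 per group. Slide numbers come from the scanner files' names: slide 1 held S154D_DMSO 1, S154A_CDCA 3 and S154A_DMSO 1, slide 2 held S154D_CDCA 1 and 3 and S154A_DMSO 2, slide 3 held 1 array of each group, and slide 4 held S154D_DMSO 2 and S154A_CDCA 2.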

Additional observations from a re-analysis of the deposited data

How the results depend on the processing

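For CDCA against DMSO in S154D cells the 2 called probes became 1 with quantile normalization, with normexp background correction or with the brightest probe per gene name. They became 0 without the filter, with only the groups compared and with the probe GC correction. They were also 0 with the unnormalized series table and with the slide as a block. In settings chosen after seeing the data, they became 0 without slide 2 or without slide 4. Over all probes limma called 0 without the filter, with only the groups compared, with the GC correction and with the slide as a block. It called 1 with the series table, 11 without slide 2 and 3092 without slide 4, against 3111 in the main fit. Where no probe passed, the loss of the 2 calls is not particular to these probes. With 1 array left out the count was 0 to 2. The replicate numbers do not pair the arrays (correlations of same-numbered deviations -0.27 to 0.40, not every array matching its own number best); with the replicate block, alone or with the GC correction, the count was 0, and over all probes it was 1014 and 0, against 3111. Over all settings PRKCA A_23_P55099 differed by -0.83 to -0.44 (adjusted p = 0.0158 to 0.632 by limma, called in 6 of 27) and PRKCD by -0.52 to -0.23 (0.0243 to 0.779, called in 14 of 28). S154D against S154A under CDCA gave 0 to 1 with an array left out. The other 3 comparisons kept 0 called protein kinase C probes in every setting. Over all probes, the count ran from 0 to 3851 for CDCA in S154D cells (0 without S154D_CDCA 3, S154D_DMSO 1 or S154D_DMSO 3), 9 to 37 in S154A cells, 4 to 453 for S154D against S154A under CDCA, 0 under DMSO, and 0 to 170 for the difference between the responses. With the looser background mark, 1 probe in place of 2 was above background on no array. The cause of these changes was not tested.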
